A study of Mus musculus with 8 samples.

Results

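Wnt ligands are secreted, lipid-modified proteins, and 10 of them were followed here in hair matrix keratinocytes of the mouse, the proliferating epithelium of the hair bulb from which hair shaft and inner root sheath form. The members are Wnt3, Wnt3a, Wnt4, Wnt5a, Wnt6, Wnt7b, Wnt10a, Wnt10b, Wnt11 and Wnt16, taken by gene name from both deposited expression tables. They are 10 of 19 mouse Wnt ligand genes and 10 of 32693 genes with a value in either table, and all 10 are listed in both tables. The libraries form 4 groups of 2. The DKO libraries after 5-aza and the untreated DKO libraries carry the label Tet2/Tet3 DKO with Krt14-Cre, and the WT libraries after 5-aza and the untreated WT libraries are labelled WT only. Tet2 and Tet3 encode dioxygenases that oxidise 5-methylcytosine, and the Krt14 promoter is active in basal cells of the epidermis and its appendages. Treated mice received 50 µg of 5-aza under the skin at postnatal day 2.5. All cells were isolated by FACS at postnatal day 4.5. 5-aza is a cytidine analogue that inhibits DNA methyltransferases. The labels do not say which markers the sort used, whether WT mice carried Cre, or whether a library held 1 animal or several, so p-values measure the spread between libraries only.

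Wnt proteins are acylated by Porcn, carried to the cell surface by Wls, and bind Frizzled receptors on the receiving cell. With the co-receptors Lrp5 and Lrp6 they stabilise β-catenin, which acts with TCF/LEF factors on target genes. Others, of which Wnt5a and Wnt11 are the usual examples, signal largely without β-catenin. In the hair follicle, Wnt signalling through β-catenin starts placode formation and drives matrix cells towards the hair shaft.

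Reads in listed genes numbered 11825515 to 14132115 per untreated library and 16744915 to 23512270 per 5-aza library. Those were 55.8% to 62.0% and 38.4% to 42.4% of the library totals to which FPKM, a read count divided by gene length and library size, had been scaled by the authors. Keratinocyte markers were high in every library. Krt5 was 544 and 578 FPKM in untreated DKO libraries and 298 and 372 FPKM in untreated WT libraries, and 200.4 to 363 FPKM over the 4 libraries after 5-aza. Fibroblast genes were also present, with Col1a1 at 886 and 773 FPKM in untreated DKO and 267 and 819 FPKM in untreated WT, against 30.1 to 75.1 FPKM over the 4 libraries after 5-aza. Tet3 was 6.92 and 7.31 FPKM in untreated DKO and 11.8 and 11.4 FPKM in untreated WT, and Tet2 was 2.72 and 2.55 FPKM in untreated DKO and 3.23 and 3.28 FPKM in untreated WT. These values cover whole genes and not the deleted parts. Xist was 74.4 FPKM in replicate 1 and 1.19 FPKM in replicate 2 of untreated DKO, and 82.1 FPKM and 0.327 FPKM in replicates 1 and 2 of untreated WT. Libraries after 5-aza held both Xist and the Y-linked Ddx3y. There Xist was 4.60 and 3.65 FPKM in DKO and 16.9 and 23.1 FPKM in WT. Ddx3y was 2.08 and 2.00 FPKM in DKO and 1.24 and 0.917 FPKM in WT. Both genes were separate by genotype. In comparisons that use the 5-aza libraries, a difference in the mix of sexes and one of genotype therefore cannot be told apart.

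The promoters of these genes are of interest because TET enzymes and 5-aza both act on methylation at CpG sites; no methylation values were analysed here. RefSeq promoter windows of GRCm38.p6, 250 bases before to 50 bases after a gene's start, were found for 7 of the 10 members in 8 windows. Wnt5a, Wnt7b and Wnt10a had none. The 4 printed below belong to Wnt3, Wnt6 and Wnt11, the members with a window that stood past the authors' own threshold in a comparison, and to Wnt16, whose level lay farthest apart between the tables. They read 5′ to 3′ on the gene's strand, with each CpG in capitals. Wnt3 is at chr11:103773925-103774224 on the plus strand, Wnt6 at chr1:74771642-74771941 on the plus strand, Wnt11 at chr7:98834862-98835161 on the plus strand, and Wnt16 at chr6:22287977-22288276 on the plus strand.
Wnt3: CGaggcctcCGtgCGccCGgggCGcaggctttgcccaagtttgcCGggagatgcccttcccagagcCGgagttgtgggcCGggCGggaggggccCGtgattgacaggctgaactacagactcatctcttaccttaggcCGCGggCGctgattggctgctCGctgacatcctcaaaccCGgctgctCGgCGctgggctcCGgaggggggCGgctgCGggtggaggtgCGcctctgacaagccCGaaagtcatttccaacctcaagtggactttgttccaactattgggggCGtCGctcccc
Wnt6: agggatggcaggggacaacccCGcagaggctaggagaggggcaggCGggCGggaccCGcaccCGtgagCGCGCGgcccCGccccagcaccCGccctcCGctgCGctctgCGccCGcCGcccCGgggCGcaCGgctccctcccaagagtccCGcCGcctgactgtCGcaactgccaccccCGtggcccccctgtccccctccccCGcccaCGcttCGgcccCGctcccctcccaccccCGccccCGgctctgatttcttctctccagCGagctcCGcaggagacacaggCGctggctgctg
Wnt11: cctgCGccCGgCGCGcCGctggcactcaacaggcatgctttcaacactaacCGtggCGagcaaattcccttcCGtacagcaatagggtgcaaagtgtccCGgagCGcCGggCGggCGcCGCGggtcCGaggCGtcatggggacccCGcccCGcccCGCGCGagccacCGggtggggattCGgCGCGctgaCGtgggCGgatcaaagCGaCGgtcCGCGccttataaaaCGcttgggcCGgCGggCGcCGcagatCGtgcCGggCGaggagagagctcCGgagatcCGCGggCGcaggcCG
Wnt16: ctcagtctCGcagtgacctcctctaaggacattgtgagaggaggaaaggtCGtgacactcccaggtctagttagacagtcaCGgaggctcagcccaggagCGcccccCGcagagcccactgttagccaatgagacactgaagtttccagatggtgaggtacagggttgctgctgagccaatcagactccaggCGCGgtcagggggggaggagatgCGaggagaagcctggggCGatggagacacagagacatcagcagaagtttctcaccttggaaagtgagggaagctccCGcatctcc
Most of the windows were rich in CpG. The median over all 32851 RefSeq windows was 7 CpG, with quartiles at 3.00 and 20.0. Wnt4 had 51 CpG, Wnt3a 45, Wnt6 31, Wnt3 24 and Wnt10b 18. Wnt11 had 45 in the printed window and 23 in a second window. Wnt16 had the fewest, with 10. The core TCF/LEF motif CTTTGA or CTTTGT, searched on both strands, occurred 1 time in the Wnt3 window and 1 time in the printed Wnt11 window, in lower-case letters above. It was found in none of the other 6 member windows and in 31.2% of all windows. TATAAA occurred in the printed Wnt11 window alone among the 8, and in 13.6% of all windows. These matches are descriptions of the letters and not binding sites.

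Levels can be compared between genes only after a correction of length. The deposited length equals the summed exons of all annotated transcripts for 97.6% of genes in the untreated table and 97.5% in the 5-aza table, so genes with many transcripts have understated FPKM. The deposited length was 3.89 times the merged exon length for Wnt10b, 3.25 times for Wnt7b, 2.38 times for Wnt11 and 1.76 times for Wnt5a. For Wnt3, Wnt3a and Wnt4 the ratio was 0.998 or 0.999. Levels between genes are therefore given below as reads per kilobase of merged exon per 1000000 reads in nuclear genes, called the rescaled level.

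Wnt5a, a ligand of the β-catenin-independent branch, had the top rescaled level in all 4 groups. It averaged 75.3 in DKO and 75.5 in WT after 5-aza, and 61.2 in untreated DKO and 71.9 in untreated WT. Wnt10b, a ligand present from the first stage of follicle formation, stood next in all 4 groups, at 51.2 in DKO and 52.9 in WT after 5-aza, and 46.1 in untreated DKO and 33.5 in untreated WT. By deposited FPKM in untreated DKO, Wnt10b had lain behind Wnt3, Wnt4, Wnt6 and Wnt10a, so its place in the order depended on the gene length used. In DKO after 5-aza its libraries overlapped those of Wnt6. Wnt6 and Wnt4 followed, with overlapping libraries in untreated DKO and in both 5-aza groups. In untreated WT, Wnt4 at 23.8 was separate from Wnt6 at 19.6. Wnt10a came next, at 18.9 in DKO and 14.4 in WT after 5-aza, and 22.6 in untreated DKO and 11.4 in untreated WT. Wnt3 and Wnt11 followed Wnt10a; their libraries were separate in untreated DKO, at 13.3 for Wnt3 and 8.70 for Wnt11, and overlapped in the other groups. Wnt7b, Wnt16 and Wnt3a were the 3 lowest in every group, none above 3.83 on average.

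**Figure D1:**
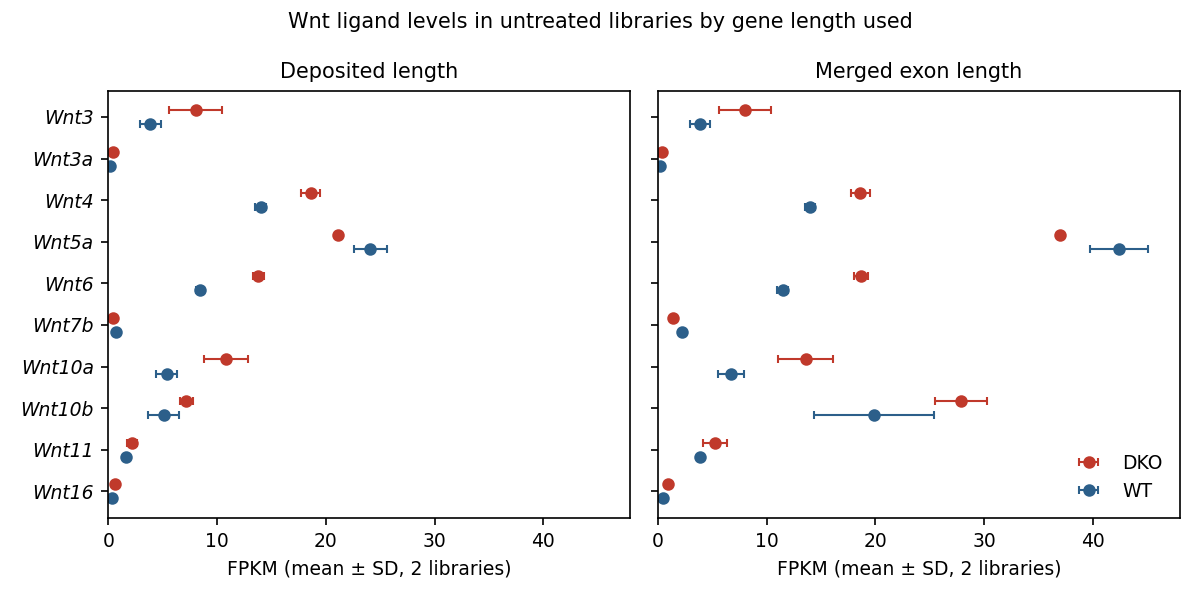
Mean FPKM of each Wnt ligand in untreated DKO and untreated WT libraries, on the deposited gene length (left) and on the merged exon length (right), with bars for the SD of 2 libraries. Wnt10b is 7.16 FPKM in DKO and 5.11 FPKM in WT on the deposited length, and 27.9 FPKM in DKO and 19.9 FPKM in WT on the merged length; Wnt3 stays in place.

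The summed rescaled level of the 10 ligands was 208 and 228 in untreated DKO libraries and 174 and 183 in untreated WT libraries. The 2 groups did not overlap. Wnt5a made up 28.0% of the sum in untreated DKO and 40.4% in untreated WT. After 5-aza the sums were 228 and 262 in DKO and 245 and 185 in WT, which overlapped, and Wnt5a made up 30.7% in DKO and 35.1% in WT.

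The first comparison asked how the ligands differed between DKO and WT matrix without treatment. In deposited FPKM, both DKO libraries lay above both WT libraries for 8 of 10 ligands, Wnt3, Wnt3a, Wnt4, Wnt6, Wnt10a, Wnt10b, Wnt11 and Wnt16. The same was true of 24.1% of the 17339 genes tested. Wnt5a and Wnt7b lay below WT in both DKO libraries, as did 19.3% of genes. Libraries of DKO and WT thus overlapped for none of the 10 ligands, against 43.4% of all genes that were separate in either direction. With scaling to reads in listed genes, the same counts of 8 above and 2 below held, against 21.3% and 24.4% of all genes. By limma on log2(FPKM + 1) with Benjamini-Hochberg adjustment over all genes, none of the ligands passed the threshold of 0.05; 1 gene of 17339 did, or 0.00577%. The ligands' adjusted p ran from 0.153 to 0.575. At an unadjusted p under 0.05, 6 ligands were higher and 1 was lower in DKO, against 6.72% and 4.73% of all genes. The median log2 difference was 0.33 over the 10 ligands and 0.01 over all genes tested. The members were chosen with earlier results of these data known. Counts and medians set against all genes, here and below, therefore describe the set and do not test it. All 10 passed the filter on low values, with all 4 libraries at the read minimum.

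**Figure D2:**
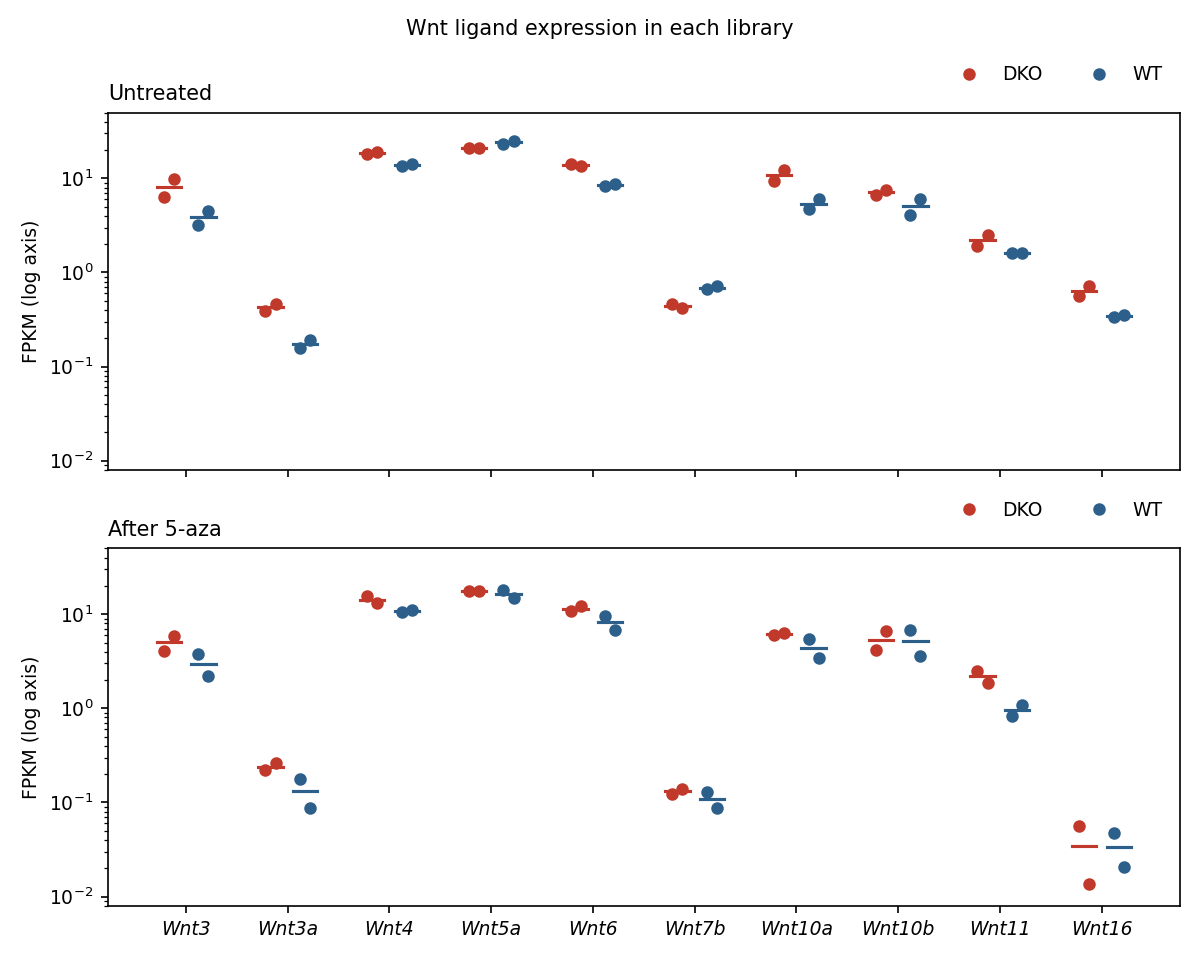
Deposited FPKM (log axis) of each Wnt ligand in each library, DKO at the left and WT at the right of each pair, untreated above and after 5-aza below; points are libraries and lines are group means of 2. Untreated, the DKO points lie above the WT points for 8 ligands and below for Wnt5a and Wnt7b; after 5-aza they lie above for 6 ligands and overlap for Wnt5a, Wnt7b, Wnt10b and Wnt16.

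The ligands best known for β-catenin signalling in skin were Wnt3, Wnt3a, Wnt10a and Wnt10b. Wnt3 (ENSMUSG00000000125, chromosome 11, 103774150 to 103817957, plus strand) shortens the hair when overexpressed in mouse skin. It was 6.30 and 9.74 FPKM in untreated DKO and 3.21 and 4.53 FPKM in untreated WT. All DKO values lay above WT, with a ratio of means of 2.07 and a log2(FPKM + 1) difference of 0.88 ± 0.23 (SE; adjusted p = 0.304, limma). The spread within each genotype was wide, and replicate 2 was the higher library in both.

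Wnt10a (ENSMUSG00000026167, chromosome 1, 74791516 to 74804179, plus strand) is a gene whose mutation in humans causes ectodermal dysplasia with sparse hair and missing teeth. It was 9.42 and 12.3 FPKM in untreated DKO and 4.69 and 6.01 FPKM in untreated WT. The lowest DKO library was above the highest WT library. The ratio of means was 2.03 and the log2 difference 0.90 ± 0.17 (adjusted p = 0.219, limma). Wnt6 (ENSMUSG00000033227, chromosome 1, 74771892 to 74785322, plus strand), which can induce kidney tubules in mouse tissue culture, is the upstream neighbour of Wnt10a on the same strand, 6193 bases away with 0 genes between. Wnt6 was 14.1 and 13.4 FPKM in untreated DKO and 8.21 and 8.73 FPKM in untreated WT. Its libraries were close within each genotype, and the gap between genotypes was larger than that spread, with a ratio of 1.62 and a log2 difference of 0.64 ± 0.09 (adjusted p = 0.153, limma). In voom, a weighted fit on recovered reads, the Wnt6 difference was 0.70 (adjusted p = 0.0409), and Wnt10a missed the threshold (adjusted p = 0.0518). The FPKM ratio of Wnt10a to Wnt6 was 0.668 and 0.915 in DKO and 0.571 and 0.688 in WT, and overlapped.

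In the authors' deposited table, a DESeq2 test per comparison, 3 of the 10 ligands were higher in untreated DKO at an adjusted p under 0.05 and 0 were lower, against 0.793% and 0.486% of 29647 genes, or 1.28% in either direction. The authors' deposited table gives log2 differences of DKO over WT of 1.03 ± 0.24 for Wnt3 (adjusted p = 0.00315), 1.00 ± 0.20 for Wnt10a (adjusted p = 0.000102) and 0.67 ± 0.16 for Wnt6 (adjusted p = 0.00325). The adjusted p of the other 7 ligands in the authors' deposited table ran from 0.191 for Wnt4 to 0.999 for Wnt3a. The calls on these 3 genes therefore differ between the deposited test and limma, while the direction is the same.

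Wnt3a (ENSMUSG00000009900, chromosome 11, 59248033 to 59290752, minus strand), which keeps the hair-inducing activity of cultured mouse dermal papilla cells, was the ligand with the fewest reads without treatment. It held 24 and 25 reads in untreated DKO and 10 and 12 reads in untreated WT, or 0.392 and 0.464 FPKM in DKO and 0.159 and 0.191 FPKM in WT. The ratio of means was 2.45, on very few reads, and the log2 difference 0.28 ± 0.05 (adjusted p = 0.215, limma). Adding 1 FPKM before the logarithm shrinks such low values; with 0.1 FPKM the Wnt3a difference was 0.94, and in voom 1.25. Wnt10b (ENSMUSG00000022996, chromosome 15, 98770712 to 98778150, minus strand) was 6.73 and 7.59 FPKM in untreated DKO and 4.11 and 6.11 FPKM in untreated WT. The higher WT library lay close to the lower DKO library, and the log2 difference was 0.44 ± 0.18 (adjusted p = 0.462, limma). It was 0.20 without WT replicate 1 and 0.67 without WT replicate 2.

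Of the remaining ligands, Wnt4 and Wnt16 were higher and Wnt7b lower in untreated DKO by their library values. Wnt4 (ENSMUSG00000036856, chromosome 4, 137277489 to 137299726, plus strand), needed for kidney and ovary development, was 18.0 and 19.2 FPKM in untreated DKO and 13.6 and 14.3 FPKM in untreated WT. The genotypes were separate, with a ratio of 1.33 and a log2 difference of 0.39 ± 0.10 (adjusted p = 0.284, limma). Wnt16 (ENSMUSG00000029671, chromosome 6, 22288227 to 22298522, plus strand), known for its effect on cortical bone, was 0.562 and 0.712 FPKM in untreated DKO and 0.339 and 0.354 FPKM in untreated WT. That rests on 79 and 88 reads in DKO and 49 and 51 reads in WT, with a log2 difference of 0.28 ± 0.07 (adjusted p = 0.282, limma). Wnt7b (ENSMUSG00000022382, chromosome 15, 85535437 to 85582473, minus strand), which acts in lung development and in the mouse hair germ, was 0.466 and 0.415 FPKM in untreated DKO and 0.663 and 0.722 FPKM in untreated WT. It was 1.57 times as high in WT by the means, and the log2 difference was -0.23 ± 0.06 (adjusted p = 0.309, limma). With 0.1 FPKM added in place of 1 it was -0.55 and in voom -0.65, while for Wnt16 these values were 0.72 and 0.86.

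Wnt5a (ENSMUSG00000021994, chromosome 14, 28504750 to 28527448, plus strand) was 20.9 and 21.2 FPKM in untreated DKO and 23.1 and 25.2 FPKM in untreated WT. The gap was small against its level, with a ratio of 0.873 and a log2 difference of -0.19 ± 0.11 (adjusted p = 0.575, limma). Wnt11 (ENSMUSG00000015957, chromosome 7, 98835112 to 98855195, plus strand), a ligand of cell movement in the embryo, was 1.89 and 2.53 FPKM in untreated DKO and 1.63 and 1.63 FPKM in untreated WT. Its ratio was 1.36 and its log2 difference 0.28 ± 0.13 (adjusted p = 0.487, limma). It was 0.43 without DKO replicate 1 and 0.14 without DKO replicate 2. Exons of Wnt5a, Wnt7b and Wnt11 overlap an opposite-strand gene each, Gm2670, AU022754 and Gm8398, and the strand setting of the counting is not given in the sources used here. Those 3 genes held 36 to 41, 1 to 8 and 0 to 1 reads per untreated library, so their own counts were small beside the ligands'.

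Markers of other compartments differed with genotype in the same untreated libraries. Cortex and shaft keratins, 8 of 9 listed and none at 0, summed to 200.2 and 292 FPKM in DKO and 29.6 and 44.4 FPKM in WT, and all 8 were higher in DKO by estimate. Matrix and keratinocyte markers summed to 899 and 983 FPKM in DKO and 521 and 665 FPKM in WT, most of it Krt5 and Krt14. By estimate, 7 of the 8 were higher in DKO and 1 was lower. The limma log2 differences were 0.75 for Krt5, 1.28 for Krt14, 1.10 for Hoxc13 and 0.93 for Foxn1. They were 0.09 for Msx2, 0.15 for Lef1, 0.02 for Dlx3 and -0.35 for Mki67. Dermal papilla markers, 15 of 15 listed and none at 0, summed to 225 and 216 FPKM in DKO and 368 and 352 FPKM in WT, and 13 of the 15 were lower in DKO by estimate. None of these 3 lists had a gene past the adjusted threshold. Inner root sheath markers, 8 of 8 listed and none at 0, summed to 325 and 472 FPKM in DKO and 306 and 251 FPKM in WT. Both DKO sums lay above both WT sums, and by estimate 5 of the 8 were higher and 3 lower in DKO. Among the 3 lower ones was the 1 gene past the adjusted threshold, Krt28, a keratin of that sheath, at -4.40 ± 0.15 (adjusted p = 0.0235, limma). Sums were low for immune markers, at 7.13 and 9.17 FPKM in DKO and 2.66 and 3.44 FPKM in WT. They were also low for endothelial markers, at 2.54 and 1.86 FPKM in DKO and 1.24 and 1.09 FPKM in WT, and for muscle markers, at 0.945 and 1.16 FPKM in DKO and 0.708 and 0.832 FPKM in WT. Each of these sums was separate between the genotypes. So was that of melanocyte markers, at 41.6 and 42.9 FPKM in DKO and 34.0 and 35.7 FPKM in WT. By estimate, 4 of these 8 markers were higher and 4 lower in DKO. Sums overlapped for fibroblast markers, at 1366 and 1149 FPKM in DKO and 473 and 1274 FPKM in WT. They also overlapped for interfollicular epidermis markers, at 158 and 279 FPKM in DKO and 293 and 108 FPKM in WT. The part of these markers in the ligand differences was not tested, and in bulk libraries fewer cells of a type and less RNA per cell cannot be told apart. Within replicate 1, which differs from replicate 2 in Xist in both genotypes, 8 ligands had a positive difference with a median of 0.32. Within replicate 2, 8 were positive with a median of 0.37. The count of 8 was fixed for any pairing, since DKO and WT libraries overlapped for none of the ligands. Only the medians could vary.

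The second comparison asked the same question after 5-aza. Both DKO libraries lay above both WT libraries for 6 of 10 ligands, Wnt3, Wnt3a, Wnt4, Wnt6, Wnt10a and Wnt11, against 28.0% of 16856 genes tested. None lay below, against 11.6% of genes, and the libraries overlapped for Wnt5a, Wnt7b, Wnt10b and Wnt16. Over all genes, 39.6% were separate in either direction. The background leaned towards higher values in DKO. With scaling to reads in listed genes it was 16.8% above and 22.3% below, and the ligand counts were again 6 and 0. By limma, 0 of 16856 genes passed the threshold, or 0%, and the ligands' adjusted p ran from 0.365 to 0.996. In voom the number called was likewise 0, while the authors' deposited table has 207 genes, or 0.708%, past an adjusted p of 0.05 in either direction. Before adjustment, a p under 0.05 was reached by 1120 genes on the higher and 387 on the lower side. Scaling to reads in listed genes gave 741 and 707. Of the ligands, Wnt4 and Wnt11 were among the higher ones under both scalings, against 6.64% of genes higher and 2.30% lower with the deposited scaling. The median difference was 0.26 over the ligands and 0.03 over all genes. Here too the members had been chosen with earlier results known.

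Wnt11 had the largest ratio of DKO to WT among the 10 ligands after 5-aza, at 2.5 and 1.87 FPKM in DKO and 0.828 and 1.09 FPKM in WT. The lower DKO library was above the higher WT library, with a ratio of means of 2.28 and a log2 difference of 0.70 ± 0.13 (adjusted p = 0.365, limma), or 1.11 with 0.1 FPKM added and 1.17 in voom. In the authors' deposited table Wnt11 was the only ligand of the 10 past an adjusted p of 0.05, at 1.11 ± 0.23 on the log2 scale (adjusted p = 0.000613). That was 1 of 10 ligands higher and 0 lower, against 0.547% and 0.161% of 29246 genes in the authors' deposited table. Wnt4 was 15.5 and 13.1 FPKM in DKO and 10.5 and 11.0 FPKM in WT after 5-aza. Its ratio of 1.33 was the same as without treatment, and the log2 difference was 0.38 ± 0.10 (adjusted p = 0.447, limma).

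For the 3 ligands past the authors' threshold without treatment, DKO and WT lay closer after 5-aza by their estimates, an order that did not hold for Wnt3 and Wnt6 without WT replicate 1. Wnt3 was 4.11 and 5.94 FPKM in DKO and 3.77 and 2.18 FPKM in WT, a log2 difference of 0.61 ± 0.26 (adjusted p = 0.590, limma). Wnt6 was 10.7 and 12.2 FPKM in DKO and 9.59 and 6.84 FPKM in WT, a log2 difference of 0.44 ± 0.17 (adjusted p = 0.565, limma). Wnt10a was 6.05 and 6.28 FPKM in DKO and 5.43 and 3.40 FPKM in WT, a log2 difference of 0.43 ± 0.20 (adjusted p = 0.620, limma). In all 3, WT replicate 1 lay near the DKO libraries and WT replicate 2 apart from them. Without WT replicate 1 the differences were 0.91 for Wnt3, 0.66 for Wnt6 and 0.70 for Wnt10a, beside 0.88, 0.64 and 0.90 untreated with all libraries. Without WT replicate 2 they were 0.32 for Wnt3, 0.23 for Wnt6 and 0.16 for Wnt10a. Without DKO replicate 2 the Wnt3 difference was 0.39. The FPKM ratio of Wnt10a to its neighbour Wnt6 was 0.567 and 0.517 in DKO and 0.566 and 0.496 in WT. In the authors' deposited table the adjusted p after 5-aza was 0.760 for Wnt3 and 1.000 for both Wnt6 and Wnt10a.

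Wnt10b was 4.12 and 6.60 FPKM in DKO and 6.87 and 3.63 FPKM in WT after 5-aza. The split ran between libraries and not between genotypes, and the log2 difference of 0.05 ± 0.33 (adjusted p = 0.980, limma) turned negative with either other scaling. DKO replicate 2 and WT replicate 1, the libraries high in Wnt10b, were also high in melanocyte markers, whose 8 genes summed to 29.4 and 139.7 FPKM in DKO and 97.6 and 22.1 FPKM in WT. All 8 were listed and none was at 0. The dermal papilla sums were 33.8 and 69.0 FPKM in DKO and 135 and 57.5 FPKM in WT. Their part in the Wnt10b values was not tested.

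The other 4 ligands gave little difference after 5-aza or rested on few reads. Wnt3a was 0.220 and 0.261 FPKM in DKO and 0.177 and 0.0871 FPKM in WT, on 24 and 42 reads in DKO and 23 and 11 reads in WT (log2 difference 0.13 ± 0.05, adjusted p = 0.568, limma). Wnt5a was 17.6 and 17.5 FPKM in DKO and 18.2 and 14.9 FPKM in WT, and its log2 difference of 0.09 ± 0.11 was -0.00 with scaling to reads in listed genes and 0.02 with median-ratio scaling. Wnt7b was 0.124 and 0.138 FPKM in DKO and 0.130 and 0.0863 FPKM in WT. The genotypes overlapped for Wnt5a and Wnt7b. Wnt16 held 14 and 5 reads in DKO and 14 and 6 reads in WT, or 0.0560 and 0.0135 FPKM in DKO and 0.0469 and 0.0207 FPKM in WT. It passed the filter with 1 library of each genotype at the read minimum, and a genotype difference was not detectable at this depth.

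**Figure D3:**
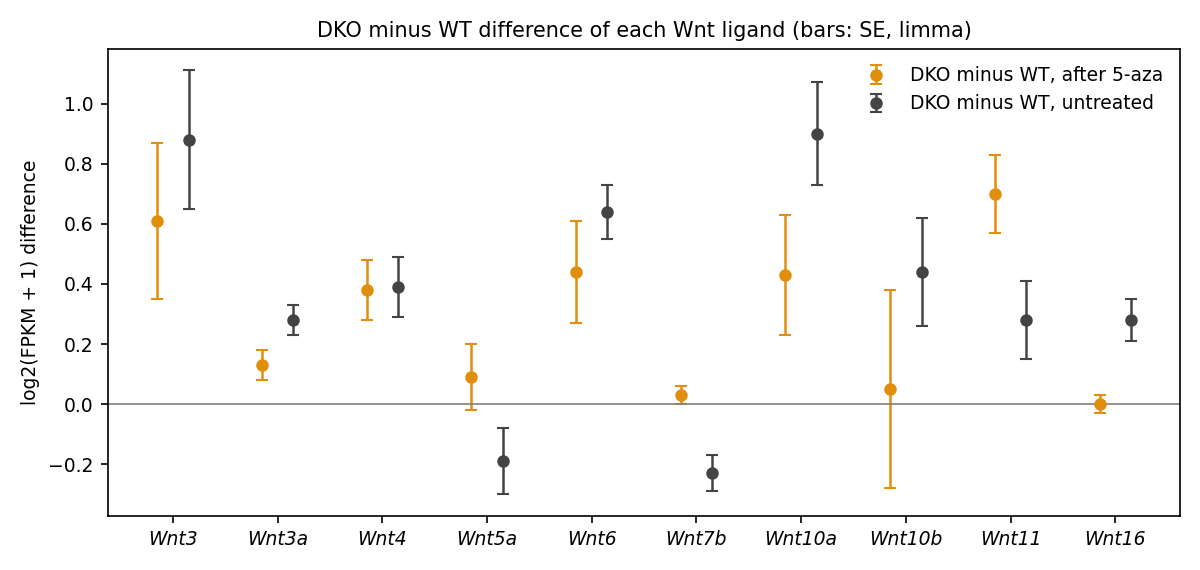
Difference in log2(FPKM + 1), DKO minus WT, of each Wnt ligand after 5-aza (orange, left) and untreated (grey, right), with bars for the SE from limma. Wnt3, Wnt6 and Wnt10a are 0.61, 0.44 and 0.43 after 5-aza and 0.88, 0.64 and 0.90 untreated, while Wnt11 is 0.70 after 5-aza and 0.28 untreated.

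The third comparison asked whether the genotype difference itself changed with 5-aza, as an interaction over 8 libraries. The tables were normalised separately, and a difference between them that scales both genotypes alike cancels only in genes of high FPKM. Of 15699 genes, 3 passed the threshold, or 0.0191%, and none was a ligand, in limma (adjusted p 0.688 to 0.999) or in voom. At an unadjusted p under 0.05, Wnt7b was higher and Wnt16 lower, against 3.03% of genes higher and 2.59% lower. For Wnt7b the DKO minus WT difference was 0.03 after 5-aza and -0.23 untreated, an interaction of 0.26 ± 0.06 (adjusted p = 0.688, limma). For Wnt16 it was 0.00 after 5-aza and 0.28 untreated, an interaction of -0.28 ± 0.07 (adjusted p = 0.733, limma). Both ligands were below 1 deposited FPKM in all libraries. After 5-aza Wnt7b held 0.0863 to 0.138 FPKM and Wnt16 0.0135 to 0.0560 FPKM, where log2(FPKM + 1) leaves little room for a difference. Their limma interactions therefore largely repeat the untreated differences with the sign turned, and cannot tell whether the treatment mattered. In voom the interactions were 0.95 for Wnt7b (unadjusted p = 0.0149, voom) and -1.13 for Wnt16 (unadjusted p = 0.192, voom). On the merged exon length, Wnt7b averaged 1.43 FPKM in untreated DKO and 2.25 FPKM in untreated WT. After 5-aza it averaged 0.426 FPKM in DKO and 0.352 FPKM in WT on that length. The interaction was 0.42 ± 0.19 for Wnt11 (0.76 in voom), -0.47 ± 0.29 for Wnt10a, -0.26 ± 0.39 for Wnt3 and -0.20 ± 0.20 for Wnt6. So the calls of Wnt3, Wnt6 and Wnt10a without treatment and of Wnt11 after 5-aza in the authors' deposited tables do not show that their genotype differences differed between the treatments.

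Set side by side, levels after 5-aza and without treatment lay within 1.58 times of each other for 8 of the 10 ligands and farther apart for Wnt16 and Wnt7b. This was not tested, because the tables were processed separately, and the ratios are of rescaled levels. Treatment also cannot be told apart from other differences between the sets of libraries. The labels tie the library kits to no group, and the share of reads in listed genes differed. Wnt16 after 5-aza was 0.0796 of its untreated level in DKO and 0.149 of it in WT, and 0.357% of genes in DKO and 1.11% in WT had a lower ratio. Wnt7b after 5-aza was 0.439 of its untreated level in DKO and 0.239 of it in WT. The other 8 ligands ranged from 0.832 for Wnt3a to 1.46 for Wnt11 in DKO, and from 0.904 for Wnt11 to 1.58 for Wnt10b in WT. Over all genes the median ratio was 0.995 in DKO and 1.01 in WT, with 5% of genes under 0.312 in DKO and under 0.309 in WT. Interfollicular epidermis markers, 5 of 5 listed and none at 0, summed to 5.60 and 11.3 FPKM in DKO and 4.09 and 2.91 FPKM in WT after 5-aza, and to 158 and 279 FPKM in untreated DKO and 293 and 108 FPKM in untreated WT. Their part in the Wnt16 and Wnt7b values was not tested. For Wnt5a, the rescaled level was 73.9 and 76.7 in DKO and 82.1 and 69.0 in WT after 5-aza, and 61.1 and 61.4 in untreated DKO and 72.6 and 71.3 in untreated WT. On this scale both DKO libraries after 5-aza lay above both untreated DKO libraries, while the WT libraries overlapped. In deposited FPKM, Wnt5a was lower after 5-aza in both genotypes. It was 14.9 to 18.2 in the 5-aza libraries and 20.9 to 25.2 in the untreated ones, so its order depends on the scale. The summed FPKM of dermal papilla markers was 33.8 to 135 in the 5-aza libraries and 216 to 368 in the untreated ones, and its part in the Wnt5a values was not tested.

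**Figure D4:**
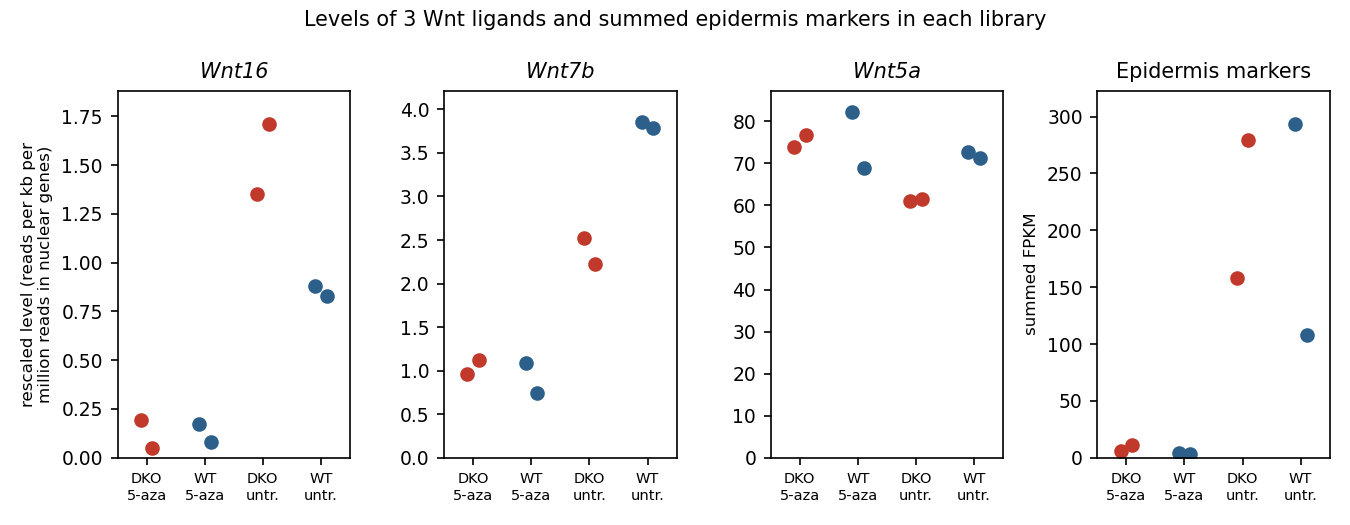
Rescaled level (read density over merged exons relative to the reads in nuclear genes) of Wnt16, Wnt7b and Wnt5a, and the summed FPKM of 5 interfollicular epidermis markers, in each library; red points are DKO and blue points WT, 5-aza groups at the left and untreated groups at the right. Wnt16, Wnt7b and the epidermis sum are lower in every 5-aza library than in every untreated library. On this scale Wnt5a is higher after 5-aza in DKO and overlaps in WT. In deposited FPKM it is lower after 5-aza in both, at 14.9 to 18.2 after 5-aza and 20.9 to 25.2 untreated. The 2 tables were processed separately.

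Of the 9 mouse Wnt ligands outside the 10, 8 were listed in the untreated table and 9 in the 5-aza table. Without treatment, none lay above WT in both DKO libraries, 1 lay below and 7 overlapped. After 5-aza, 1 lay above, 3 lay below and 5 overlapped. Over all genes tested, 24.1% lay above and 19.3% below without treatment, and 28.0% above and 11.6% below after 5-aza. Wnt1 was among the 3 below, with 0 and 0 reads in DKO and 1 and 1 reads in WT, a difference not detectable at this depth. By deposited FPKM, only Wnt8a averaged 1 or more in any group. On the merged exon length Wnt5b also did, at 2.01 FPKM in untreated DKO and 1.86 FPKM in untreated WT. Wnt8a was 8.75 and 11.9 FPKM in DKO and 28.2 and 15.8 FPKM in WT after 5-aza, a log2 difference of -0.98 ± 0.31 (adjusted p = 0.494, limma). In the authors' deposited table it was -1.15 ± 0.27 (adjusted p = 0.00501). Untreated, Wnt8a was 2.12 and 1.32 FPKM in DKO and 2.26 and 2.67 FPKM in WT. Its rescaled level after 5-aza was 8.89 times the untreated one in DKO and 13.6 times in WT, not tested.

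A further 3 members lie head to head with a Wnt ligand outside the 10, on opposite strands and with 0 genes between. Wnt3 is 24328 bases from Wnt9b and Wnt3a is 16175 bases from Wnt9a, both on chromosome 11, and Wnt10b is 11706 bases from Wnt1 on chromosome 15. Without treatment, the libraries of Wnt9b and Wnt9a overlapped between genotypes. Wnt9b averaged 0.141 ± 0.0729 FPKM in untreated DKO and 0.0777 ± 0.0411 FPKM in untreated WT, and Wnt9a 0.322 ± 0.0627 FPKM in untreated DKO and 0.377 ± 0.234 FPKM in untreated WT (SD, n = 2 each). Wnt1 has values in the 5-aza table alone.

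The rest of the pathway was read from lists by role, and limma put no gene of any list past the threshold in any of the 3 comparisons. At an unadjusted p under 0.05 in untreated libraries, 2 of 11 genes for secretion, 3 of 15 receptors and 2 of 14 transcription factors and targets were higher in DKO, and 3 of 9 genes of the R-spondin axis and 4 of 15 inhibitors were lower, against 6.72% of all genes higher and 4.73% lower. After 5-aza, 2 genes for secretion, 4 of 14 receptors tested, 1 gene of the R-spondin axis and 4 transcription factors and targets were higher and 1 of 13 inhibitors tested was lower, against 6.64% of all genes higher and 2.30% lower. The median untreated log2 difference was 0.08 for secretion, 0.08 for receptors, 0.12 for the R-spondin axis, -0.04 for inhibitors and 0.12 for transcription factors and targets, beside 0.01 over all genes. From each list the gene of highest deposited FPKM averaged over the libraries is also given; that FPKM is not corrected for length and ranks no levels. Of the 11 genes for secretion and release, Gpc4, a cell-surface glypican, among them, none was past the authors' threshold either. In the authors' deposited table, 2 of 15 receptors were higher in untreated DKO, Fzd5 at 0.68 (adjusted p = 0.000270) and Fzd6 at 0.60 (adjusted p = 0.00701), both Frizzled receptors. Fzd5 was 9.01 and 10.8 FPKM in untreated DKO and 5.90 and 6.28 FPKM in untreated WT. Fzd10, another Frizzled receptor, was 70.3 and 72.7 FPKM in untreated DKO and 58.9 and 62.7 FPKM in untreated WT. R-spondins, which amplify Wnt signals at the receptor, were only part of the 9 genes of the R-spondin axis. Of these 9, Rspo3 at -0.93 (adjusted p = 8.44e-06) and Rspo1 at -0.71 (adjusted p = 0.0237) were lower in untreated DKO in the authors' deposited table. Rspo3 was also on the dermal papilla marker list. Rspo4, another R-spondin, was 27.4 and 27.8 FPKM in untreated DKO and 9.57 and 21.9 FPKM in untreated WT. After 5-aza, 0 receptors and 0 genes of the R-spondin axis were past the threshold in the authors' deposited table.

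Of 15 secreted or membrane inhibitors, 0 were past the authors' threshold without treatment and 1 was lower after 5-aza, Sfrp2, which binds Wnt proteins, at -1.47 (adjusted p = 0.000103) in the authors' deposited table. Sfrp2 was 1.47 and 2.22 FPKM in DKO and 5.88 and 3.99 FPKM in WT after 5-aza. Apcdd1, a membrane inhibitor, was 46.3 and 45.7 FPKM in untreated DKO and 37.5 and 41.5 FPKM in untreated WT. Of 14 transcription factors and targets, Hoxc13 and Foxn1, regulators of hair keratin genes, were higher in untreated DKO in the authors' deposited table at 1.11 (adjusted p = 7.59e-06) and 1.08 (adjusted p = 4.25e-05). Hoxc13 was also higher after 5-aza there, at 0.81 (adjusted p = 2.18e-07). Hoxc13 and Foxn1 were also on the matrix and keratinocyte marker list, whose sum was higher in untreated DKO. That sum was mostly Krt5 and Krt14. Ccnd1, a cell cycle gene, was 63.0 and 66.1 FPKM in untreated DKO and 64.0 and 68.5 FPKM in untreated WT. Axin2, a general feedback target of β-catenin, was not past the authors' threshold without treatment, at 0.17 ± 0.13 in the authors' deposited table (adjusted p = 0.999).

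Genes whose values followed the ligands most closely were sought for Wnt6 and Wnt3a, which had the smallest unadjusted p without treatment. Likeness was Pearson's r of log2(FPKM + 1) over 8 libraries after each table's mean was subtracted, across 15699 genes. For Wnt6 they were H2afj, Rapgef4 and Itpk1 at r = 0.99 each. For Wnt3a they were Acvr2a at r = 1.00 and Gm42737 and Tbc1d10b at r = 0.99 each. With so few libraries, shared depth and shared genotype, these are descriptions only.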

How the data were processed

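RNA from FACS-isolated hair matrix keratinocytes was measured in 8 libraries, 2 per group. Per the submitters' processing notes, Trim Galore, STAR, HTSeq and DESeq2 were used on GRCm38 or mm10; versions are not given in the sources used here. Per the labels, 2 library kits are named, one of them stranded, and neither is tied to a group. The authors deposited a table per genotype comparison. The library columns hold FPKM scaled by the authors to each library's total; the headers do not name this unit, which was read from the values. The deposited mean column is a signal of size-factor-scaled reads. The deposited log2 fold changes run WT over DKO and are printed here with the opposite sign. The authors' test statistic is a score and was not used. Raw and adjusted values from the authors' DESeq2 runs stand in the deposited p-value columns. The deposited length column is another unit, bases.

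A count test was planned only if the columns held counts; they hold FPKM, so limma 3.58.1 (R 4.3.3) with a variance trend was run on log2(FPKM + 1), with two-sided p adjusted by Benjamini-Hochberg over all genes tested and a threshold of 0.05. Genes needed 10 reads at the median library size in 2 libraries and 15 in total, on reads recovered from FPKM and length. Each table was fitted alone, and the interaction over all 8 libraries. Alternatives were another added constant, no filter, other scalings, no trend, voom, a replicate block, leaving out each library, and merged exon lengths. The fits were run on simulated counts as a check of the code. The simulated spread between libraries was set and not taken from these data, so the check does not measure power or false calls here. Exact permutation of 2 against 2 libraries cannot give a two-sided p under 0.333, so none is given. Rescaled levels used merged exons of GENCODE M21, whose coordinates equal those of the files for all 19 ligands.

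The members and gene lists were chosen with earlier results of these data known. All 10 members are named, and other Wnt ligands are named at 1 FPKM or more. From other lists, genes past a threshold and the one of highest mean deposited FPKM are named. Named after their values were seen were Axin2, Krt28, Wnt1, Tet2, Tet3, Krt5, Col1a1, Xist, Ddx3y, Wnt5b and the neighbouring Wnt ligands. So were Krt14, Msx2, Lef1, Dlx3 and Mki67. For the 2 ligands of smallest untreated p, the 3 most correlated genes are named. The labels tie replicate numbers to no animal, litter or day. Untreated libraries of the same number were alike in Xist and Ddx3y, while their deviations correlated at 0.03 untreated and at -0.59 after 5-aza.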

Additional observations from a re-analysis of the deposited data

How the results depend on the processing

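In untreated libraries, the 10 ligands kept their direction in 120 of 120 alternative values, and 1 passed the threshold, Wnt6 in voom. Because DKO and WT libraries overlapped for none of the ligands untreated, most of these settings could not have turned a direction. That holds for leaving out a library, the constant, the filter, the trend, the block and merged exon lengths. After 5-aza 118 of 130 values kept their direction and in the interaction 151 of 160. In both, the filter, the trend and a block left every estimate as it was, so these settings could turn none. For the 6 ligands with separate libraries after 5-aza, leaving out a library or changing the constant could not turn a direction either. All 12 reversed values after 5-aza were of Wnt5a, Wnt10b and Wnt16, whose libraries overlapped. The number of genes called untreated, 1 as reported, was 8 with a constant of 0.1, 37 with merged exon lengths (chosen after seeing the data), 147 in voom, 0 without the filter on low values, 0 without the variance trend, and 0 to 0 without each replicate in turn. With a replicate block it was 13 untreated, 0 after 5-aza and 0 in the interaction, and no ligand passed with the block. The labels do not say that the numbers pair animals, although untreated libraries of the same number were alike in Xist, so this is not read as a stronger or weaker effect. A crossed pairing of the 5-aza libraries, chosen after seeing the data, called 91 genes, Wnt11 among them. For the interaction, 3 as reported, 1 gene was called with a constant of 0.1, with scaling to listed genes, without the trend and in voom, and 0 to 2 without each replicate in turn. After 5-aza the count was 0 under every alternative but the crossed pairing. Wnt16 after 5-aza, 0.00 as reported, was -0.00 with a constant of 0.1 and with both other scalings, -0.29 in voom, and -0.03 to 0.03 without each replicate. Wnt5a was -0.00 with scaling to listed genes and -0.05 to 0.22 without each replicate. Wnt10b was -0.03 with scaling to listed genes, -0.01 with median-ratio scaling and -0.33 to 0.43 without each replicate. In the interaction, Wnt4 was 0.00 with a constant of 0.1 and in voom and -0.12 to 0.11 without each replicate, Wnt3 was -0.56 to 0.03 and Wnt6 -0.41 to 0.02. The causes were not tested. In the interaction, scaling to listed genes gave 351 genes higher and 533 lower at an unadjusted p under 0.05, against 475 and 406 as reported. Few reads limit Wnt3a and, after 5-aza, Wnt16, and 2 libraries a group limit every ligand.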

Other observations

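Leaving out WT replicate 1 of the 5-aza libraries left 5 ligands higher in DKO at an unadjusted p under 0.05 (limma), Wnt3, Wnt3a, Wnt6, Wnt10a and Wnt11, against 819 of all 16856 genes higher and 389 lower. With 1 WT library left, that library is assumed to vary like the DKO libraries. Leaving out WT replicate 2 left 2, with 7 of 10 differences positive, against 588 genes higher and 461 lower. The same 2 WT libraries differed in summed dermal papilla markers, at 135 FPKM in replicate 1 and 57.5 FPKM in replicate 2, and in summed melanocyte markers, at 97.6 and 22.1 FPKM. They also differed in fibroblast markers, at 144 and 68.1 FPKM, and in cortex and shaft markers, at 58.0 and 35.3 FPKM. Matrix and keratinocyte sums were 490.4 and 484 FPKM, and inner root sheath sums 442 and 462 FPKM. The part of these markers in the ligand values was not tested.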
